A study of Mus musculus with 18 samples.

Results

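Liraglutide is a drug that activates the receptor for glucagon-like peptide 1 (GLP-1), a gut hormone. Its effect on the left ventricle (LV) of the infarcted mouse heart is described here as 1 common effect over both sampled regions of that chamber. The rule takes the libraries by their labels: of the 18 libraries of the series, the 12 from LV tissue entered, and the 6 atrial libraries serve for side-by-side values only. All 12 come from male C57BL/6J mice whose left anterior descending coronary artery had been tied 3 days earlier, so the PBS animals carry the infarct as well. The 4 groups are liraglutide-treated infarcted LV, PBS-treated infarcted LV, liraglutide-treated non-infarcted LV and PBS-treated non-infarcted LV, each with 3 libraries that the labels call biological replicates. Each label holds a number, odd for liraglutide and even for PBS, that occurs once in each region. It was treated as the animal, although no label says that it is one. The labels mention sham-operated mice, which were not analysed here. The sources used here give neither the dose nor the start of treatment.

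The GLP-1 receptor is coupled to cAMP production and is best known for insulin release from pancreatic beta cells. In the mouse heart its messenger RNA is found mainly in the atria. After a coronary ligation the ventricle loses cardiomyocytes, takes up neutrophils and monocytes, and fibroblasts then lay down collagen that becomes the scar, while the surviving muscle shifts its use of fuel and its cytoskeleton. The microtubules of cardiomyocytes are polymers of alpha and beta tubulin. Microtubule-associated proteins bind along them or at their growing ends.

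Library totals were 8211804 to 11181101 counts in infarcted LV with liraglutide and 4280459 to 10772531 with PBS. In non-infarcted LV they were 11991818 to 15698897 with liraglutide and 8341694 to 17016262 with PBS. Ventricular identity held: Myl2, the ventricular myosin light chain, was at 7695 to 11180 CPM (counts scaled to a common library total) in the LV libraries, against 2.08 to 924 CPM in atria. The atria were uneven, with Myl2 at 275, 8.3 and 924 CPM with liraglutide, against 8.82, 5.945 and 2.08 with PBS. Atrial PBS replicate 2 also held the fat tissue genes Adipoq and Ucp1 at 79.25 and 88.8 CPM. In the other atria they reached at most 4.84 and 0.144 CPM. The atrial light chain gene Myl7 was at 0 to 3.59 CPM in infarcted LV, but at 32.1, 43.3 and 8.01 CPM in non-infarcted LV with liraglutide and at 81.9, 47.0 and 0 CPM with PBS. Region was the main axis of variation, with 65.8% of the variance on the first principal component. PBS replicate 3, the shallowest of its group in both regions, stood apart on the second component (6.49% of the variance) at -21.49 in infarcted and -28.15 in non-infarcted LV, against 0.795 to 9.012 for the other LV libraries.

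Of 25230 genes, 13325 passed the filter on low counts and were fitted together, with region as covariate and the number as random effect (limma-voom). All p-values printed here are two-sided, and adjusted ones are Benjamini-Hochberg values over all genes of the fit they come from, 13325 unless another fit is named. The question was which genes differ between liraglutide and PBS alike in both regions. One gene passed an adjusted p of 0.05, which is 0.0075% of those tested: Mtus2, which rose. No gene fell past that threshold. At an unadjusted p under 0.05 there were 947 genes (7.11%), 397 with higher (2.98%) and 550 with lower levels (4.13%) under liraglutide, and 943 (7.08% of those tested) also had the same sign in both regions. The shared value combines both regions, so choosing genes by its p favours the same sign, and the 943 say little about agreement between regions. Whatever the p, 7923 genes (59.5%) had the same sign in both, 3789 higher (28.4%) and 4134 lower (31%). The shared value was above 0 for 6467 genes (48.5%) and below 0 for 6858 (51.5%). Both regions may come from the same 6 animals, so they are not independent repeats of one another. In this fit the 95% interval of the shared log2 fold change lay within -1 and 1 for 12847 genes (96.4%), and within -0.5 and 0.5 for 10471 (78.6%). The interval rests on spread between libraries, so it may be too narrow if the number marks an animal.

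Mtus2 encodes a microtubule-associated protein that, in human cells, sits at the growing ends of microtubules. Its level was 163, 154 and 135 CPM in infarcted LV with liraglutide, against 113, 93.6 and 92.00 with PBS. CPM is scaled by TMM, edgeR's correction for library composition, here and below unless stated otherwise. Non-infarcted LV held 189, 183 and 189 CPM with liraglutide, against 147, 124 and 126 with PBS. Every liraglutide library was above every PBS library of the same region. The shared log2 fold change was 0.54 (SE 0.0668, 95% interval 0.40 to 0.68), a 1.46-fold higher level, with an adjusted p of 0.00324 from limma-voom. It was 0.59 in infarcted and 0.50 in non-infarcted LV, and the difference between the regions was 0.10 (SE 0.103). In the atria the level was 313, 361 and 283 CPM with liraglutide, against 348, 322 and 347 with PBS (log2 fold change -0.09, edgeR adjusted p 0.959). There the groups overlapped, and the difference between chambers was not tested.

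The Mtus2 call depended on the model. On counts summed per number, edgeR gave 0.53 with an adjusted p of 0.223 (13875 genes tested). On sums of libraries thinned to equal depth edgeR gave 0.59 with an adjusted p of 0.00242 (12756 genes). That thinning discarded reads at random and was not repeated. Limma-trend on the mean of both regions gave 0.55 with an adjusted p of 0.218. Without PBS replicate 2 limma-voom gave 0.49 with 0.106 (13472 genes). Over all 20 alternatives the adjusted p ran from 1.486e-10 to 0.2229. DESeq2, which did not take the number into account, called 65 genes, 23 higher and 42 lower.

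The gene lies on chromosome 5 (chr5:147957320-148316065, plus strand, GRCm38, identifier ENSMUSG00000029651.16). The annotation places Gm10167 on the opposite strand within it and Gm43553 on the same strand. The sources used here do not state the strand setting of the counting, so reads of these genes may be included. RefSeq gives 2 start sites on GRCm38.p6, and the gene-level counts cannot tell them apart. The 250 bases before each are shown because Mtus2 is the gene that passed. Both are on the plus strand, the first at chr5:147957070-147957319 and the second at chr5:148264967-148265216, read 5′ to 3′. Capitals mark the GC box (GGGCGG, or CCGCCC on the other strand).
Mtus2 start 1: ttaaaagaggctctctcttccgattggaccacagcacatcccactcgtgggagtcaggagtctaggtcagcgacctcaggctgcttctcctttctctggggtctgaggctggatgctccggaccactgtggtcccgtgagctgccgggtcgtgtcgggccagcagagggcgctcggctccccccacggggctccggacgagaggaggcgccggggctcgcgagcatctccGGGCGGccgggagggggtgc
Mtus2 start 2: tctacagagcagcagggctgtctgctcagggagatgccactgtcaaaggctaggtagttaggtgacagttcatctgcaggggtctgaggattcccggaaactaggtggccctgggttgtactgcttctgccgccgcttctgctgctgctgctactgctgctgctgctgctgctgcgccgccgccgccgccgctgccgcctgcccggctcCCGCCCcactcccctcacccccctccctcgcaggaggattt
Each stretch holds 1 GC box. Of 32851 RefSeq stretches of the same length before a start, 32.7% hold at least 1. Neither holds the half-site of the cAMP response element (TGACG, or CGTCA on the other strand), which 17.8% of these stretches hold. The GC fraction was 67.6% and 64.8%. A match or its absence describes these letters only.

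**Figure D1:**
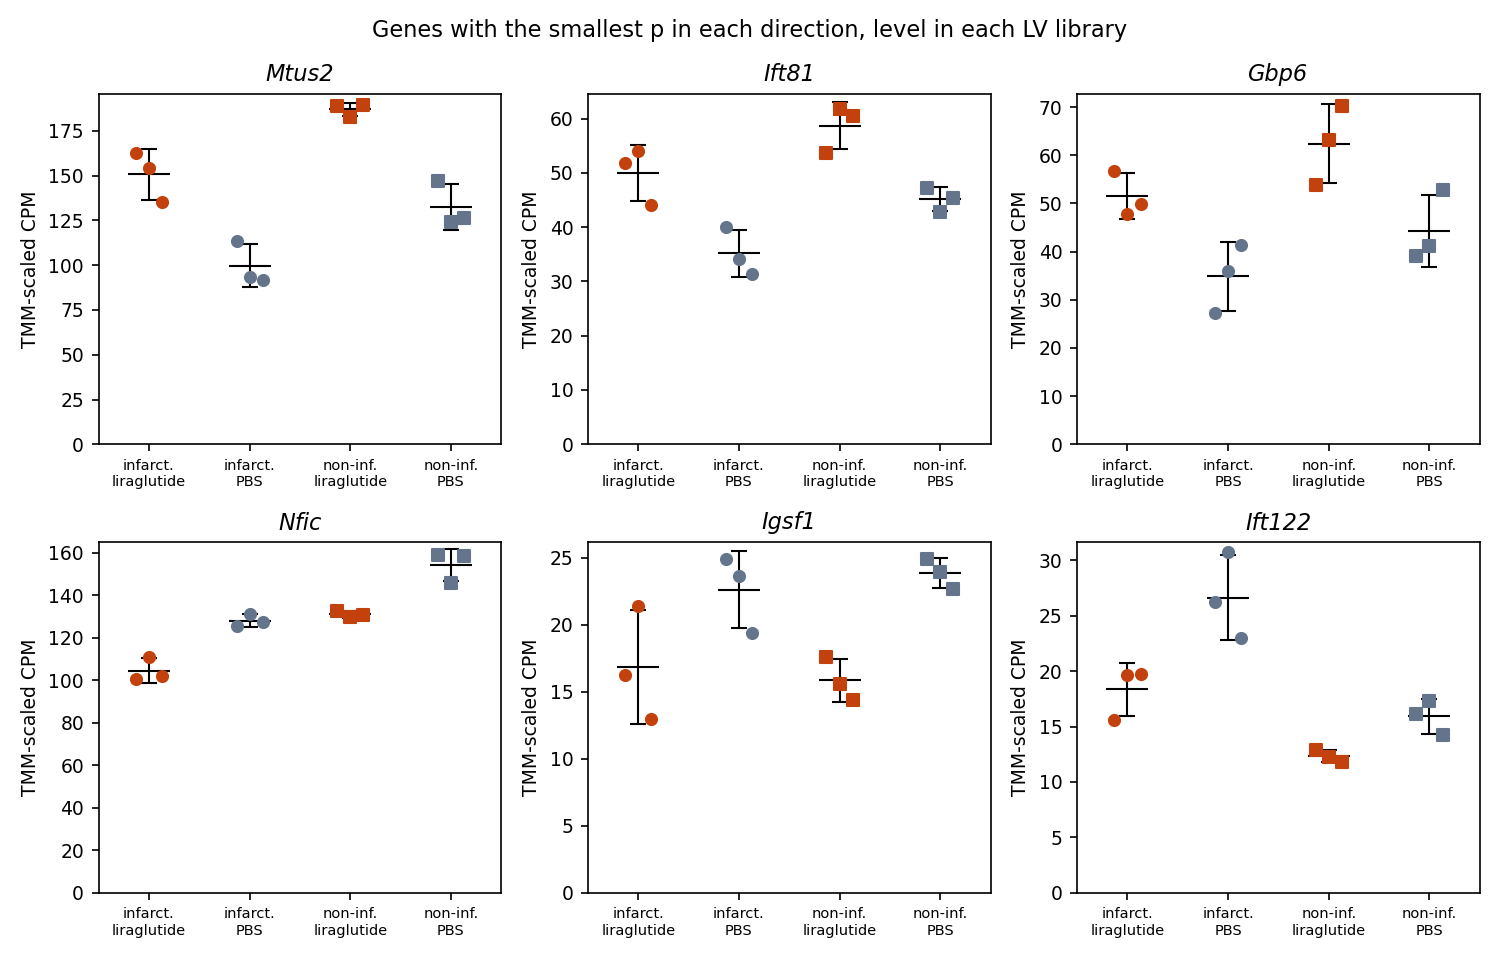
TMM-scaled CPM (y axis, from 0) in each LV library for the genes with the smallest p in each direction, higher genes in the upper row and lower genes in the lower row. Points are libraries, black dashes with bars are the mean and SD over 3 libraries, and liraglutide stands left of PBS within infarcted (circles) and non-infarcted LV (squares). Mtus2 in liraglutide libraries lies above PBS in both regions without overlap, while Igsf1 overlaps in infarcted LV.

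Besides Mtus2, the 11 further genes with higher levels and the smallest p did not pass the threshold (limma-voom adjusted p of 0.0828 to 0.1674). They were picked by that p and for the same sign in both regions, so their counts describe the choice. Fold values over the 12 were 1.18 to 1.48. The liraglutide and PBS groups did not overlap in either region for 9 of the 12, and Ano10, Ptgds and Ctnnal1 were the exceptions. Over all tested genes 175 (1.31%) had such a pattern on the same side, 65 higher (0.488%) and 110 lower (0.826%). Within one region, the groups did not overlap for 1362 genes (10.2%) in infarcted and 1336 (10%) in non-infarcted LV.

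Ift81 encodes a tubulin-binding subunit of the intraflagellar transport complex B, which carries cargo along the microtubules of cilia. It was at 51.9, 54.00 and 44.1 CPM in infarcted LV with liraglutide, against 39.95, 34.1 and 31.4 with PBS. The non-infarcted values were 53.7, 61.8 and 60.5 with liraglutide, against 47.3, 42.8 and 45.4 with PBS. All liraglutide libraries were higher within a region (shared log2 fold change 0.42, SE 0.07296, adjusted p 0.0828). Armc2, an armadillo-repeat gene needed for the mouse sperm flagellum, stood at 0.40 (SE 0.0772, adjusted p 0.0863). Its level was 71.1, 77.2 and 84.6 CPM in non-infarcted LV with liraglutide, against 67.8, 53.7 and 61.1 with PBS. In contrast Ift122, a subunit of the intraflagellar transport complex A, had lower values: 15.6, 19.7 and 19.8 CPM in infarcted LV with liraglutide, against 26.2, 30.7 and 23.00 with PBS. Its level in non-infarcted LV was 12.9, 12.3 and 11.8 with liraglutide, against 16.1, 17.3 and 14.3 with PBS (shared log2 fold change -0.49, SE 0.0947, adjusted p 0.0863).

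Bnip3 encodes a mitochondrial membrane protein that marks mitochondria for autophagy. Infarcted LV held 253, 291 and 242 CPM with liraglutide, against 206, 196 and 204 with PBS. Non-infarcted LV held 333, 360.2 and 329 with liraglutide, against 307, 279 and 276 with PBS. The groups did not overlap in either region, and the shared log2 fold change was 0.31 (SE 0.0566, adjusted p 0.0828). The lysosomal protease gene Ctsl gave 0.29 (SE 0.0594, adjusted p 0.119) and the glutathione transferase gene Gstm1 0.24 (SE 0.0487, adjusted p 0.119). Gstm1 has close relatives among the Gstm genes with which reads may be shared. Xdh, which encodes xanthine oxidoreductase of purine breakdown, was at 292, 328 and 392 CPM in infarcted LV with liraglutide, against 247, 231 and 286 with PBS, and its shared log2 fold change was 0.34 (SE 0.0768, adjusted p 0.167).

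Gbp6, an interferon-inducible GTPase gene whose sequence is close to that of Gbp10, had the steepest value of the 12. It was at 56.8, 47.8 and 49.9 CPM in infarcted LV with liraglutide, against 27.2, 35.9 and 41.4 with PBS. In non-infarcted LV the values were 53.9, 63.2 and 70.3 with liraglutide, against 38.99, 41.1 and 52.8 with PBS, and the nearest libraries were almost level. Its shared log2 fold change was 0.57 (SE 0.1005, adjusted p 0.0828). Ptgds, the lipocalin-type prostaglandin D2 synthase gene, stood at 0.52 (SE 0.117, adjusted p 0.167), with 497, 420.4 and 297 CPM in infarcted LV with liraglutide, against 246, 283 and 339 with PBS. There liraglutide replicate 3 lay below PBS replicate 3. The remaining 3 of the 12 were Ano10, of the anoctamin membrane protein family (0.49, SE 0.0896), the phosphatase gene Dusp18 (0.43, SE 0.0914) and Ctnnal1, which encodes alpha-catulin (0.33, SE 0.0762).

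The 12 genes with lower levels and the smallest p had fold values of 0.687 to 0.855 and limma-voom adjusted p of 0.0828 to 0.1557, so none passed. The groups did not overlap in either region for 10 of them, with Igsf1 and Rhoc as exceptions. Several encode proteins of the cytoskeleton. Map1b, a microtubule-associated protein best known from neurons, was at 26.4, 31.03 and 29.8 CPM in infarcted LV with liraglutide, against 36.1, 37.3 and 36.7 with PBS. The non-infarcted libraries had 12.4, 14.4 and 12.01 with liraglutide, against 16.3, 17.5 and 17.8 with PBS (shared log2 fold change -0.36, SE 0.0707, adjusted p 0.0863). Tuba1a, an alpha tubulin gene, was at 69.4, 73.9 and 74.5 CPM in infarcted LV with liraglutide, against 93.2, 105 and 86.3 with PBS. Its non-infarcted values were 54.9, 58.04 and 58.2 with liraglutide, against 66.4, 63.8 and 64.98 with PBS. The shared value was -0.29 (SE 0.0612, adjusted p 0.119), with -0.39 in infarcted and -0.19 in non-infarcted LV, and reads may be shared with the near-identical Tuba1b. The actin-bundling gene Fscn1 had -0.42 (SE 0.0859, adjusted p 0.109). Rhoc, a GTPase that acts on the actin cytoskeleton, had -0.29 (SE 0.0649, adjusted p 0.156).

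Serpinh1 and Hspg2 belong to matrix assembly. Serpinh1, which encodes the collagen chaperone HSP47, was at 391, 354 and 439.7 CPM in infarcted LV with liraglutide, against 449, 652 and 598 with PBS. In non-infarcted LV it was at 191, 197 and 176 with liraglutide, against 211, 266 and 298 with PBS. Liraglutide libraries were lower throughout, but the PBS libraries spread widely, with PBS replicate 1 the lowest of its group in both regions. The shared log2 fold change was -0.48 (SE 0.09404, adjusted p 0.0912). Hspg2, the basement membrane proteoglycan perlecan, was at 1107, 1054 and 1079 CPM in infarcted LV with liraglutide, against 1249, 1369 and 1378 with PBS, and its shared value was -0.23 (SE 0.04995, adjusted p 0.156).

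Nfic, a transcription factor of the nuclear factor I family, had the smallest p among the lower genes. It was at 101, 111 and 102 CPM in infarcted LV with liraglutide, against 125, 131 and 127 with PBS. Non-infarcted LV held 133, 129.6 and 130.5 CPM with liraglutide, against 159, 145 and 159 with PBS (shared log2 fold change -0.26, SE 0.0487, adjusted p 0.0828). The membrane glycoprotein gene Igsf1 stood at -0.54 (SE 0.103, adjusted p 0.0862). Fbp2, the muscle fructose-bisphosphatase, was at 18.01, 21.89 and 26.7 CPM in non-infarcted LV with liraglutide, against 28.96, 28.8 and 33.2 with PBS, and its shared value was -0.46 (SE 0.0948, adjusted p 0.119). The remaining lower genes were Dchs1, an atypical cadherin (-0.37, SE 0.0803), and Sh3bgr, which is expressed in striated muscle (-0.25, SE 0.0545). In the atria the log2 fold change had the LV sign for 10 of the 12 higher genes, with Mtus2 among the exceptions. It had the LV sign for 7 of the 12 lower genes. The share over all tested genes was not computed, and the atrial libraries carry the same numbers as the LV libraries. These counts therefore say little about agreement between the chambers. The atrial value was -0.49 for Igsf1 and -0.41 for Map1b but 0.95 for Fbp2 and 0.12 for Ift122, each short of the edgeR threshold there.

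**Figure D2:**
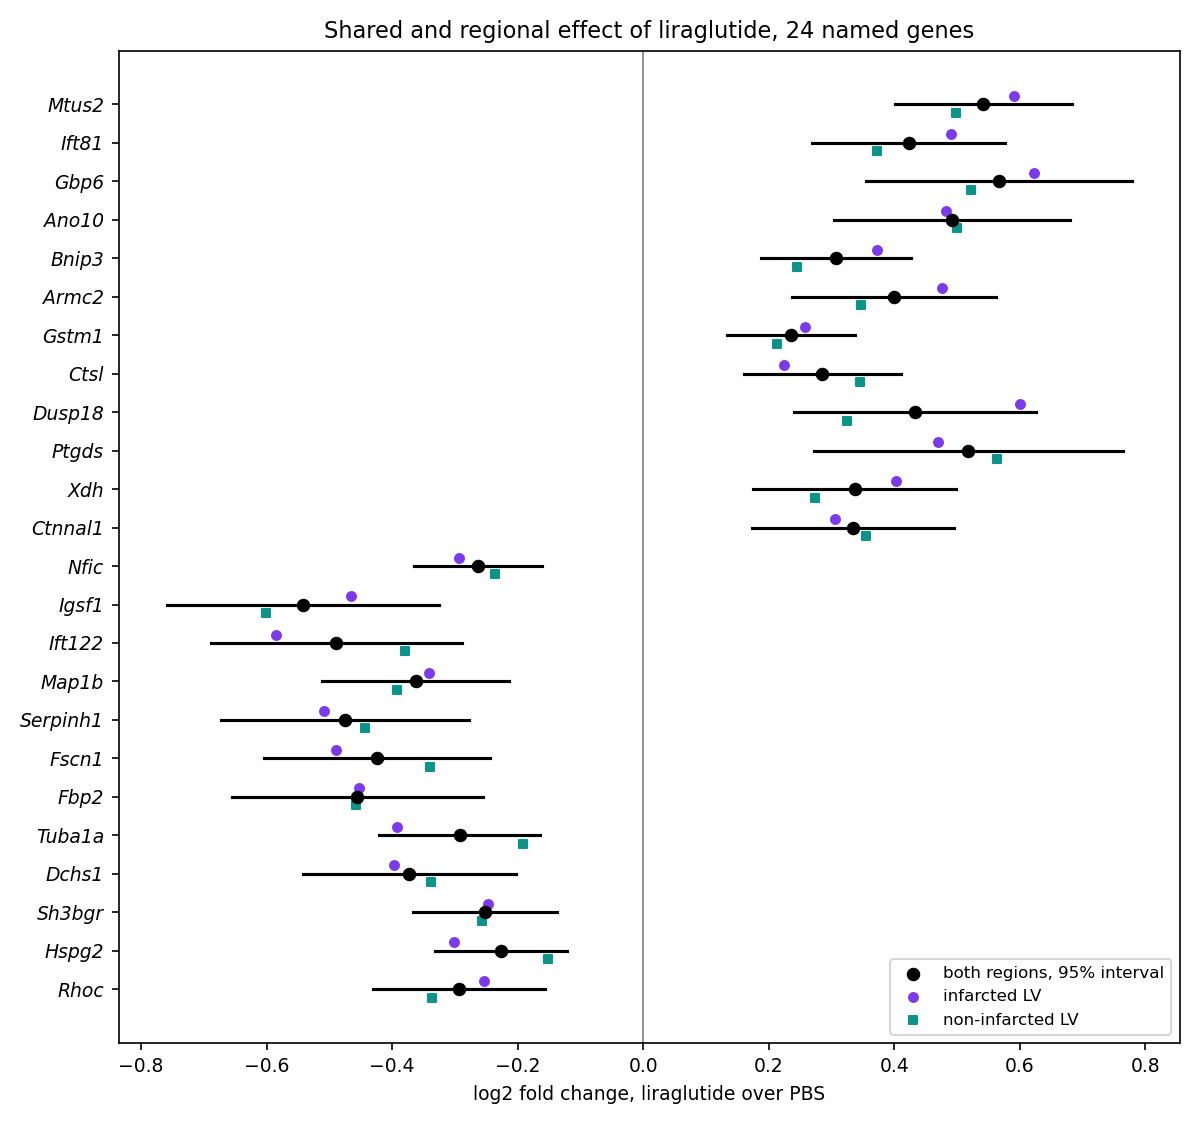
Log2 fold change of liraglutide over PBS (x axis) for the 24 genes with the smallest p, 12 higher and 12 lower (y axis). Black points with bars give the shared effect and its 95% interval, purple circles infarcted LV and green squares non-infarcted LV. The 24 genes were chosen by this p and for the same sign in both regions, and only Mtus2 passed the adjusted threshold.

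The genes were also read in 40 lists of cell types and pathways. Medians of the shared log2 fold change lay within 0.1 of 0 in 31 lists, below -0.1 in 6 and above 0.1 in 3, against -0.00334 over all genes tested. Scored per number, as described below for the matrix genes, 3 of the 40 lists (7.5%) had no overlap between liraglutide and PBS, where 10.2% and 10% of single genes had none in one region. Mtus2 is the member that passed in the microtubule list, and no member of the other 39 lists passed in limma-voom. The member counts below stand against 7.11% of all genes tested at an unadjusted p under 0.05 in either direction. The same sign in both regions was found for 59.5% of all genes tested.

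Collagens and matrix genes, which form the scar and the basement membranes, had 19 of 20 members with a lower and 1 with a higher value. None passed the adjusted threshold. At an unadjusted p under 0.05 there were 13 of 20 (65%), all lower, where 7.11% of all genes tested reached it in either direction. All 20 had the same sign in both regions, and the list's median was -0.242 (-0.241 in infarcted and -0.216 in non-infarcted LV). Scored per number as the median of the members relative to the PBS mean, the 3 liraglutide numbers lay at -0.33 to -0.159 and the 3 PBS numbers at -0.056 to 0.072. These ranges did not overlap, which held for 3 of the 40 lists. Over the 20 alternatives the median ran from -0.268 to -0.17. In bulk tissue, fewer cells of a type and less RNA per cell cannot be told apart.

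Col1a1, the main chain of fibrillar collagen, was at 207, 184 and 163 CPM in infarcted LV with liraglutide, against 219, 258 and 226 with PBS. Its level in non-infarcted LV was 74.00, 78.1 and 54.4 with liraglutide, against 83.8, 88.7 and 72.1 with PBS. In infarcted LV the groups did not overlap, while in non-infarcted LV liraglutide replicates 1 and 2 lay above PBS replicate 3, and the shared value was -0.31 (SE 0.08699, adjusted p 0.339). Sparc, a collagen-binding matricellular protein, was at 669, 673 and 797 CPM in infarcted LV with liraglutide, against 800.0, 1051 and 805 with PBS (shared -0.27, SE 0.0735, adjusted p 0.287). Nid2, a basement membrane linker, gave -0.35 (SE 0.0795, adjusted p 0.167). Col8a1, a short-chain collagen of vessels and scars, gave -0.32 (SE 0.0995, adjusted p 0.407). Lox, the enzyme that cross-links collagen, was the member on the other side at 0.13.

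Fibroblast markers outside the collagens went both ways. The fibroblast list had 10 of 14 members lower, 10 of 14 with the same sign in both regions and a median of -0.0783, with -0.0434 without liraglutide replicate 1, -0.166 without PBS replicate 1 and 0.0105 without PBS replicate 2. Its collagens are also in the matrix list. Dcn, a small matrix proteoglycan, and Pdgfra, a receptor that marks fibroblasts, were at 0.09 and 0.12. Dpep1 was at 0.18 and Thbs2 at 0.23. These were the 4 members with a higher value. The others outside the collagens were lower: Postn (-0.38), Mfap4 (-0.33), Mfap5 (-0.12), Tcf21 (-0.11), Fn1 (-0.05), Fbln2 (-0.04) and Lum (-0.01). Marker sums are given in CPM of library totals, without TMM scaling. The summed level of 15 fibroblast markers was 2500 to 3040 CPM in infarcted LV with liraglutide, against 2590 to 3180 with PBS. It was 1050 to 1270 CPM in non-infarcted LV with liraglutide, against 1010 to 1270 with PBS. These sums overlapped. The 13 smooth muscle and pericyte markers did not: they summed to 5950 to 6070 CPM in infarcted LV with liraglutide, against 5230 to 5660 with PBS. In non-infarcted LV they summed to 4630 to 4830 CPM with liraglutide, against 4320 to 4560 with PBS. No other cell-type list had sums without overlap in both regions, and a sum is set mostly by its most abundant members. Whether the smooth muscle and pericyte sums also stay apart on TMM-scaled CPM was not tested. Within the smooth muscle and pericyte list the members differed. The median was 0.0277, 6 of 13 had the same sign in both regions, the pericyte marker Cspg4 was at -0.26 and Rgs5 at 0.17. Its scores per number overlapped, at -0.0766 to 0.0796 with liraglutide and -0.0329 to 0.0381 with PBS. The part of these cells in the values above was not tested.

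Transforming growth factor beta drives collagen genes in fibroblasts. Of 19 TGF-beta and BMP genes tested, 15 were lower and 4 higher, with a median of -0.12, and 10 of 19 had the same sign in both regions, where 59.5% of all genes tested did. An unadjusted p under 0.05 was reached by 2 lower members and 1 higher, and the median was -0.0513 without liraglutide replicate 1. The ligand gene Tgfb1 was at 42.9, 39.4 and 45.1 CPM in infarcted LV with liraglutide, against 48.3, 54.1 and 46.2 with PBS. The non-infarcted libraries had 21.02, 20.9 and 23.4 with liraglutide, against 25.6, 25.8 and 28.5 with PBS. The groups did not overlap in either region (shared -0.26, SE 0.0658, adjusted p 0.225). Ltbp2, a latent TGF-beta binding protein family member, gave -0.68 (SE 0.215, adjusted p 0.441), with -0.96 in infarcted and -0.35 in non-infarcted LV.

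Microtubule and tubulin genes had 15 of 20 members lower and 5 higher, with a median of -0.071 (-0.119 in infarcted and -0.0246 in non-infarcted LV), and 14 had the same sign in both regions. At an unadjusted p under 0.05, 6 were lower and 1, Mtus2, higher. The lower members were Map1b and Tuba1a, given above, with Tuba1b at -0.27 (SE 0.0721), Tuba4a at -0.21, the end-binding protein gene Mapre2 at -0.13 and the Mtus2 relative Mtus1 at -0.13. Per number, the list's score was -0.0929 to -0.0556 with liraglutide and -0.00922 to 0.0231 with PBS. These did not overlap, which held for 3 of the 40 lists. Tuba1b was at 94.2, 86.2 and 95.9 CPM in infarcted LV with liraglutide, against 110.5, 114 and 97.5 with PBS.

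Fatty acid oxidation is the main fuel pathway of the adult heart. Of 25 such genes and PPAR targets, 17 were lower and 8 higher, and 21 had the same sign in both regions. The median was -0.0642, and became -0.117 and -0.121 when liraglutide replicates 1 and 2 were left out in turn and -0.0975 when PBS replicate 2 was. At an unadjusted p under 0.05, 9 were lower and 2 higher, and none passed the adjusted threshold. Decr1, a reductase needed for unsaturated fatty acids, was at 414, 406 and 375 CPM in infarcted LV with liraglutide, against 473, 449 and 474 with PBS. In non-infarcted LV it was at 481, 504 and 518 with liraglutide, against 572, 551 and 618 with PBS, without overlap in either region (shared -0.22, SE 0.0484, adjusted p 0.163). Slc25a20, the carnitine-acylcarnitine carrier, gave -0.22 (SE 0.0529, adjusted p 0.192). Acadvl, the very long chain acyl-CoA dehydrogenase, gave -0.20 (SE 0.0576, adjusted p 0.3502). The coactivator gene Ppargc1a stood on the other side at 0.39, and Pdk4 was at 0.02. The scores per number were -0.164 to -0.0555 with liraglutide and -0.0664 to 0.0438 with PBS, so they overlapped. Of 22 respiratory chain genes, 17 were lower, with a median of -0.0304 and none at an unadjusted p under 0.05. Their medians were 0.0136 in infarcted and -0.0834 in non-infarcted LV, and 10 of 22 had the same sign in both. The shared median was -0.00348 without PBS replicate 3, -0.0556 without PBS replicate 1 and -0.0172 without liraglutide replicate 2.

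**Figure D3:**
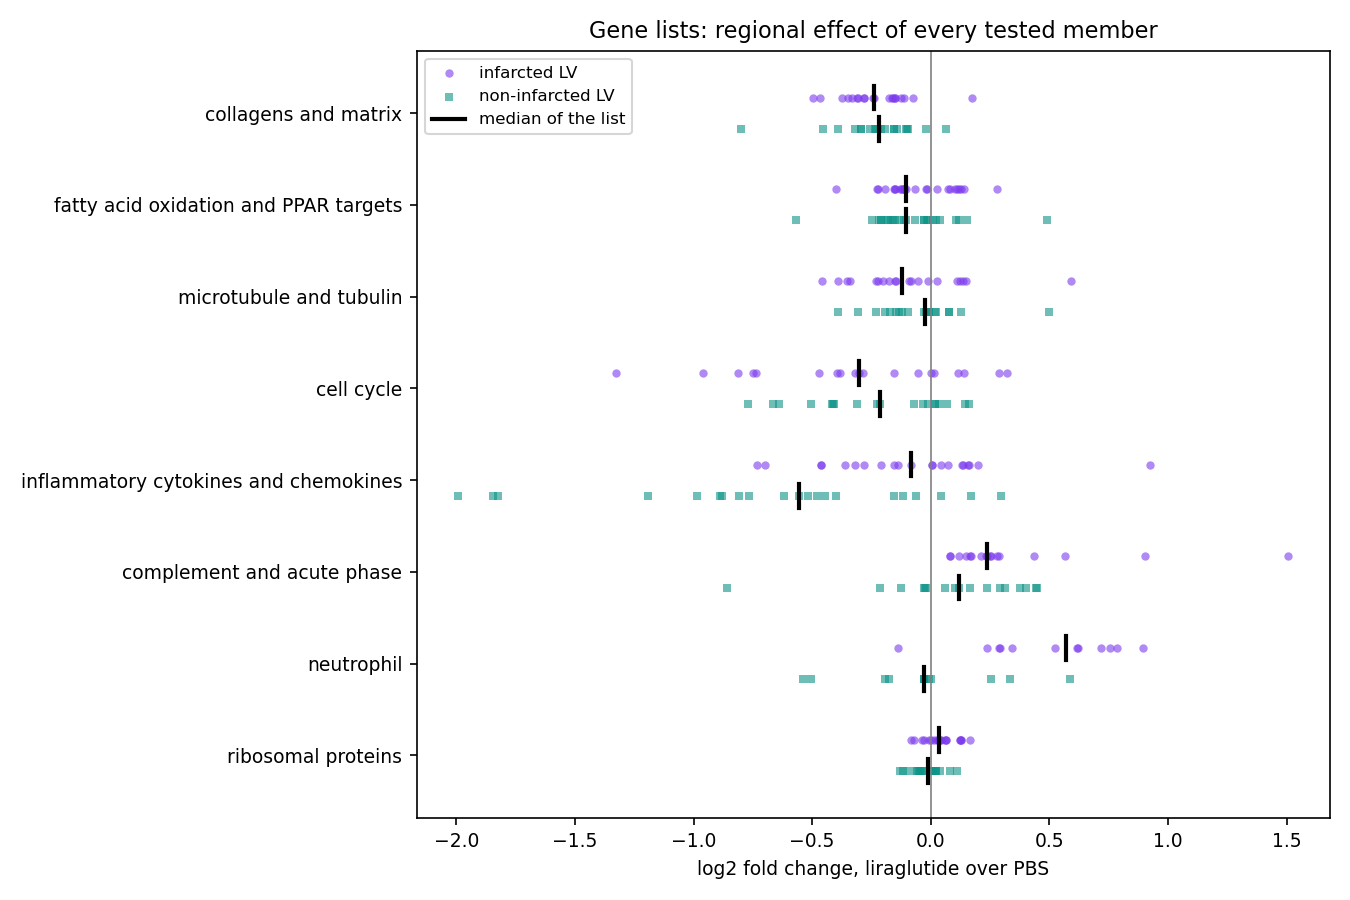
Log2 fold change of liraglutide over PBS (x axis) of every tested member of 8 lists (y axis), with purple circles for infarcted LV, green squares for non-infarcted LV and black dashes for the list's median in that region. Matrix genes lie left of 0 in both regions (medians -0.241 and -0.216), whereas the neutrophil list has a median of 0.571 in infarcted and -0.0264 in non-infarcted LV.

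Complement and acute phase genes had 16 of 17 members higher and 1 lower, with a median of 0.169 (0.236 in infarcted and 0.12 in non-infarcted LV), and 11 had the same sign in both regions. An unadjusted p under 0.05 was reached by 4 higher and 0 lower members, and none passed the adjusted threshold. C3, the central complement component, was at 438, 422 and 365 CPM in infarcted LV with liraglutide, against 280.2, 342 and 389 with PBS. Non-infarcted LV held 199.8, 213 and 138 CPM with liraglutide, against 136, 129.8 and 131 with PBS. The regions differ in overlap, since liraglutide replicate 3 lay below PBS replicate 3 in infarcted LV (shared 0.37, SE 0.1004, adjusted p 0.287). C4b, another complement component, gave 0.36 (SE 0.131) and the protease inhibitor gene Serpina3n 0.39 (SE 0.141). The scores per number were 0.0927 to 0.321 with liraglutide and -0.0477 to 0.0207 with PBS. Without liraglutide replicate 3 the median was 0.27.

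Neutrophil markers had 11 of 12 members higher and a median of 0.333, but 5 of 12 had the same sign in both regions and the scores per number, -0.139 to 0.4 with liraglutide and -0.507 to 0.633 with PBS, overlapped. The median was 0.0058 without PBS replicate 1, 0.128 without liraglutide replicate 2, 0.55 without PBS replicate 3 and 0.0424 in DESeq2. Their summed level, in CPM of library totals, was 190 to 238 CPM in infarcted LV with liraglutide, against 132 to 272 with PBS. In non-infarcted LV it was 100 to 117 CPM with liraglutide, against 90.6 to 135 with PBS. Csf3r, the receptor for granulocyte colony-stimulating factor, gave 0.64 (SE 0.227, adjusted p 0.524). Inflammatory cytokines and chemokines had 18 of 21 members lower and 3 higher, with a median of -0.242, but -0.0834 in infarcted and -0.557 in non-infarcted LV, and 12 had the same sign in both. The scores per number were -0.505 to 0.0118 with liraglutide and -0.19 to 0.203 with PBS and overlapped. The median was -0.115, -0.0772 and -0.468 without liraglutide replicates 1, 2 and 3. Ptgs2, the inducible cyclooxygenase, gave -0.42 (SE 0.151, adjusted p 0.528), with 64.9, 78.6 and 118 CPM in infarcted LV with liraglutide, against 95.7, 113 and 118 with PBS. Its PBS replicate 3 and liraglutide replicate 3 were level there.

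Of 19 interferon-stimulated genes 13 were higher, with a median of 0.119, and 15 had the same sign in both regions. At an unadjusted p under 0.05, 3 were higher and 0 lower, led by Oas2 at 0.31 (SE 0.105, adjusted p 0.474). Their scores per number overlapped, at -0.073 to 0.248 with liraglutide and -0.0652 to 0.0979 with PBS. Leaving out liraglutide replicates 1 and 3 in turn gave medians of 0.071 and 0.0406, and leaving out PBS replicate 1 gave 0.0554. Among 18 genes induced by glucocorticoids, 4 were higher and 1 lower at an unadjusted p under 0.05, with a median of 0.0668. That median was 0.194 in infarcted and -0.0499 in non-infarcted LV, 10 of 18 had the same sign in both, and leaving out liraglutide replicates 2 and 3 in turn gave 0.0072 and 0.102. The sulfotransferase gene Sult1a1 led them at 0.42 (SE 0.0964, adjusted p 0.167), and Nr3c1, the glucocorticoid receptor gene itself, was at -0.18 (SE 0.0672).

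Cell cycle genes had 14 of 19 members lower and 5 higher, with a median of -0.266, and 13 had the same sign in both regions. The unadjusted p was under 0.05 for 4 lower members and 1 higher. Mki67, a marker of dividing cells, was at 5.23, 4.58 and 6.71 CPM in infarcted LV with liraglutide, against 7.57, 12.1 and 8.43 with PBS. Its level in non-infarcted LV was 3.16, 3.595 and 1.62 with liraglutide, against 5.401, 4.47 and 3.63 with PBS. The groups did not overlap in either region (shared -0.80, SE 0.198, adjusted p 0.225). Top2a gave -0.62 (SE 0.183) and Birc5, an inhibitor of apoptosis used in cell division, -0.81 (SE 0.295), while the cell cycle inhibitor gene Cdkn1a was at 0.24. The median was -0.442 without PBS replicate 3, -0.122 without PBS replicate 2 and -0.108 with a stricter filter of 1 CPM in 6 libraries. The scores per number overlapped, at -0.205 to -0.0445 with liraglutide and -0.155 to 0.201 with PBS.

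**Figure D4:**
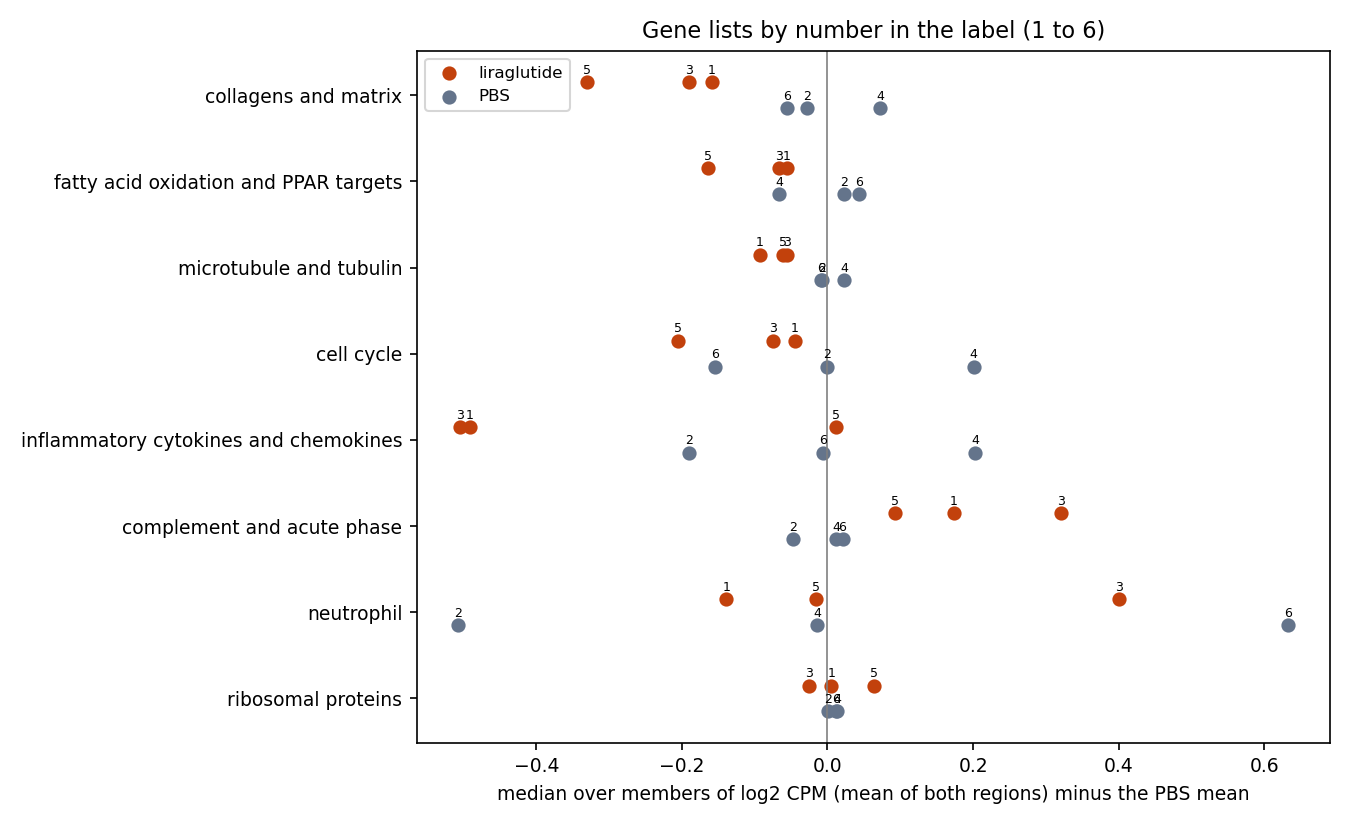
Score per number (x axis, median over a list's members of the log2 CPM averaged over both LV regions, minus the PBS mean) for 8 lists (y axis), with liraglutide in orange above PBS in grey and the number of the label beside each point. The matrix, microtubule and complement lists have no overlap between the 3 liraglutide and the 3 PBS numbers, as 3 of 40 lists in all, and the neutrophil list runs from -0.507 to 0.633 within PBS alone.

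Glp1r, the receptor itself, was too low to be tested. It had 1 count over the 3 libraries of infarcted LV with liraglutide and 0 with PBS, and 0 counts with liraglutide and 1 with PBS over those of non-infarcted LV. A count of 0 allows up to 0.12 CPM over the infarcted PBS libraries and 0.0734 CPM over the non-infarcted liraglutide libraries (3 counts, counting error only). The atria held 48 counts with liraglutide and 38 with PBS. Of 16 tested genes of GLP-1 receptor and cAMP signalling, 9 were higher and 7 lower, with a median of 0.0174 that ran from -0.0101 to 0.042 with 1 number left out, and 8 had the same sign in both regions. Prkaca, the catalytic subunit of protein kinase A, was the one member at an unadjusted p under 0.05, at -0.11 (SE 0.04998, adjusted p 0.693).

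Of 20 insulin and IGF signalling genes, 13 were higher, with a median of 0.0666, and 3 reached an unadjusted p under 0.05. The median was 0.0068 without PBS replicate 1 and 0.0435 without PBS replicate 2, and 14 had the same sign in both regions. Irs1, an adapter of the insulin receptor, gave 0.31 (SE 0.112, adjusted p 0.524). Irs2, its relative, gave 0.13 (SE 0.164, adjusted p 0.926) in the LV and was at 203, 223 and 229.7 CPM in infarcted LV with liraglutide, against 202, 188 and 182 with PBS. It was at 32.8, 62.98 and 60.5 CPM in non-infarcted LV with liraglutide, against 42.3, 36.4 and 81.97 with PBS. In the atria Irs2 gave 1.18 (edgeR adjusted p 0.0234), and the difference between chambers was not tested. The atrial libraries differed in Myl2 and Adipoq, as given above, and the part of this in the atrial values was not tested.

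The stress hormones of the heart gave no call. Nppa, which encodes atrial natriuretic peptide, was at 256, 359.9 and 318 CPM in infarcted LV with liraglutide, against 488, 495 and 296 with PBS. The non-infarcted libraries had 235, 228 and 136 with liraglutide, against 256, 387 and 146 with PBS (shared -0.39, SE 0.198, adjusted p 0.728). Myl7, the atrial marker above, also varied in the non-infarcted libraries, and its part in the Nppa values was not tested. Nppb had opposite signs in the regions (0.0026 and -0.10). The myosin heavy chains Myh6 and Myh7 gave 0.05 (SE 0.0757) and 0.06 (SE 0.196). Of 19 ion channel and calcium handling genes, 10 were higher and 9 lower, with a median of 0.0226. Among them Casq2, the calcium store protein of the sarcoplasmic reticulum, gave -0.24 (SE 0.0624, adjusted p 0.226). Atp2a2 and Pln of the same list gave 0.18 and 0.11. Mybpc3, a thick filament protein, gave -0.21 (SE 0.0631, adjusted p 0.373). Of 18 sarcomere and Z-disc genes 15 were lower and 3 higher, with a median of -0.0704, and 15 had the same sign in both regions. Leaving out liraglutide replicates 2 and 3 in turn gave -0.115 and -0.0241, and leaving out PBS replicate 3 gave -0.046.

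Whether the effect differs between the regions was tested as an interaction with the number as block (edgeR). No gene passed an adjusted p of 0.05, and 385 (2.89%) were at an unadjusted p under 0.05. limma-voom with the random effect gave 0 and 378, and DESeq2 gave 0 and 93. Tested alone in limma-voom, neither region had a gene past the threshold, with 662 (4.97%) at an unadjusted p under 0.05 in infarcted and 621 (4.66%) in non-infarcted LV. The smallest p on the side of a higher value in infarcted LV belonged to Rgs2, a regulator of G protein signalling. Its level was 60.8, 62.8 and 99.8 CPM in infarcted LV with liraglutide, against 65.2, 63.3 and 58.8 with PBS, and 41.3, 48.7 and 64.2 in non-infarcted LV with liraglutide, against 58.8, 66.7 and 79.8 with PBS. The difference in log2 fold change was 0.62 (edgeR p 0.000165, adjusted p 0.999982). Il6 followed at 0.96, with Lilr4b (0.83), H2-Aa (0.43) and Pkdrej (0.87). On the other side Hmcn1 stood at -0.52, followed by Art5 (-0.64), Nupr1 (-0.71), Olfr558 (-0.78) and Uhmk1 (-0.35). All 10 had an adjusted p of 0.999982.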

How the data were processed

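The authors deposited 1 table of raw counts per gene symbol for 18 libraries, whole numbers throughout. Libraries were made from polyadenylated RNA with a stranded TruSeq kit, per the labels' protocols. The submitters' processing notes name the mm10 build, STAR 2.7.9a and DESeq2, the last without a version. How reads were assigned to genes, with or without strand, is not stated there, so overlapping or similar genes may share reads. The p-values measure the spread between libraries that the labels call biological replicates. The fit of the shared effect had 9 residual degrees of freedom from 12 LV libraries. That is more than 3 numbers per treatment alone would give. If the number marks an animal, the p-values of that fit also rest on spread between regions of the same heart.

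The 12 LV libraries were analysed in R 4.3.3. Genes were filtered with filterByExpr of edgeR 4.0.16, scaled by TMM and fitted with limma 3.58.1 (voom, region as covariate, the label's number as random effect, consensus correlation 0.125, 17.53 degrees of freedom after moderation). The number is nested in treatment, so it could not be a block in the shared effect, and sums over both regions weight them by unequal depth. For these reasons limma-voom took the place of edgeR's count test as the main test, and edgeR and DESeq2 1.42.0 are alternatives. Limma-trend on the mean of both regions, which weights them alike, also left Mtus2 short of the threshold (adjusted p 0.218). The deviations of same-numbered infarcted and non-infarcted libraries correlated at 0.0895 to 0.15 across genes (6 pairs), against -0.134 to 0.0191 for 12 pairs of unlike number. No label says that the number marks an animal. No 2 libraries of a group repeated each other (chi-square per degree of freedom 2.55 to 10.99). Atrial and interaction tests used edgeR's quasi-likelihood test. Levels per library are TMM-scaled CPM in the named genes and CPM of library totals in the tissue check and the marker sums.

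Of 683 list entries, 643 distinct symbols were in the table and 600 were tested. The 24 named genes were ranked by p, 12 for each direction, among genes whose mean count reached 50 and whose sign was the same in both regions, leaving out unnamed gene models and ribosomal pseudogenes. Glp1r, Mtus2, Irs2, Nppa, Nppb, Myh6 and Myh7 were always named, with up to 4 genes per list and 5 per direction of the difference. List members named beyond these 4 were chosen after their values were seen. The samples and lists were chosen with earlier results of these data known. Locations come from GENCODE on GRCm38 and sequences from RefSeq on GRCm38.p6. The fit was tested on simulated data whose planted changes were larger than those of the 24 named genes. That test therefore says little about changes of their size. Alternatives covered the handling of the number, the tool, weights, scaling, filters, the libraries in the fit, and each number left out.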

Additional observations from a re-analysis of the deposited data

How the results depend on the processing

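The count of 1 gene past the adjusted threshold for the shared effect became 13 with edgeR on the 12 libraries with the number left out, 12 with voom without the random effect and 65 with DESeq2, which included all 24 named genes and 41 others. It became 0 with edgeR on sums per number (692 at an unadjusted p under 0.05) and 0 with limma-trend on means of both regions (813). In these 2 fits Mtus2 had a log2 fold change of 0.53 and 0.55 and missed the threshold. With edgeR on sums of libraries thinned at random to equal depth, in 1 draw, the count stayed 1. Mtus2 was then at 0.59 with an adjusted p of 0.00242 (range over alternatives 1.486e-10 to 0.2229), and 758 genes were at an unadjusted p under 0.05. With the replicate number as block the count was 7 (Ano10, Fbp2, Gbp6, Ift81, Igsf1, Mtus2 and Serpinh1). Same-numbered liraglutide and PBS libraries deviated at correlations of -0.0854 to -0.0486 in infarcted and -0.117 to 0.151 in non-infarcted LV. Those of unlike number had -0.0276 to 0.0988 in infarcted and -0.176 to 0.145 in non-infarcted LV. Same-numbered libraries were thus no more alike in infarcted LV, and the ranges overlapped in non-infarcted LV. With 3 same-numbered pairs per region, these values cannot exclude that the replicate number pairs samples. With 1 number left out the count was 0 to 10: 3, 2 and 10 without liraglutide replicates 1, 2 and 3, and 5, 0 and 2 without PBS replicates 1, 2 and 3. The Mtus2 value then ran from 0.49 to 0.63. It kept the smallest p of all genes in the main fit and all alternatives except 4 of those that left out a number, where it was second. Genes at an unadjusted p under 0.05 numbered 666 to 1334 with 1 number left out and 608 in the fit of all 18 libraries, against 947. The infarcted region alone had 1 call with sample quality weights and 0 to 1 with a number left out, and the non-infarcted region 0 to 2. The difference between regions gave 11 calls with no filter on low counts, and 0 under its other alternatives. The count of 175 genes with no overlap in both regions was 170 with RLE factors and 152 on library totals.

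Of the further values of named genes under alternatives, 497 kept their direction and side of the threshold, 55 came to pass it and 8 turned round. Those were Nppb at 0.08 without liraglutide replicate 1 and 0.12 without PBS replicate 3, Myh6 at -0.0057 without liraglutide replicate 2 and -0.0227 without PBS replicate 2, and Myh7 at -0.0811 without liraglutide replicate 2, -0.00188 without PBS replicate 2, -0.164 without PBS replicate 3 and -0.0527 without the shallowest library. With 1 number left out, Nppb ran from -0.155 to 0.12, Myh6 from -0.0227 to 0.112 and Myh7 from -0.164 to 0.355. The causes were not tested. Among list medians 777 stayed within the spread between numbers and 23 moved beyond it, among them the atrial list, at -0.685 without PBS replicate 3 against 0.0508.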

Other observations

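Dbp, a clock output gene, was at 4.69, 10.9 and 29.8 CPM in infarcted LV with liraglutide, against 18.1, 21.5 and 20.5 with PBS. In non-infarcted LV it was at 21.02, 25.3 and 40.8 with liraglutide, against 37.1, 38.7 and 24.8 with PBS. Hlf, of the same transcription factor family, was at 15.98, 17.5 and 27.2 CPM in non-infarcted LV with liraglutide, against 25.5, 23.9 and 21.5 with PBS. In both genes and both regions liraglutide replicate 1 was the lowest and replicate 3 the highest of all libraries of its region. Dbp and Hlf were picked from the 18 tested clock genes, and the order of libraries in the other members is not given here. The clock list's score per number ran from -0.336 to 0.191 with liraglutide and from -0.0573 to 0.0145 with PBS. The hour of tissue collection is not given in the sources used here.

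Kcnc1 and Eps8l1 were below the mean count set for named genes and were chosen after their values were seen. Kcnc1, a voltage-gated potassium channel gene, was at 1.98, 2.65 and 1.77 CPM in infarcted LV with liraglutide, against 0.498, 1.35 and 0.228 with PBS. Its non-infarcted values were 6.33, 4.37 and 4.68 with liraglutide, against 2.196, 2.61 and 1.95 with PBS (shared log2 fold change 1.24, SE 0.235, limma-voom adjusted p 0.0862). The groups did not overlap in either region. Eps8l1, related to an actin-regulating adapter, was at 10.6, 3.84 and 9.89 CPM in infarcted LV with liraglutide, against 0.897, 1.26 and 8.65 with PBS, and at 9.19, 2.696 and 6.73 in non-infarcted LV with liraglutide, against 0.475, 0.652 and 4.02 with PBS. Its level followed the number in both regions: liraglutide replicate 2 was the lowest of its group and PBS replicate 3 the highest of its own. The shared value was 2.30 (SE 0.526, limma-voom adjusted p 0.167).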
